A study of Mus musculus with 12 samples.

Results

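The comparison described here is the loss of Nat1 in mouse embryonic stem cells kept in 2i plus LIF. It sets 3 arrays of Nat1-null cells in 2i+LIF against 3 arrays of wild-type (WT) cells in 2i+LIF, which are 6 of the 12 single-colour Agilent arrays of the series, and it covers all genes on the array. The arrays were taken by the genotype and medium of their labels, with no use of measured values. The other 6 arrays hold Nat1-null and WT cells in LIF without 2i and enter here through the shared estimate of the spread and through tests of whether an effect of genotype differed between media. All 4 groups were labelled as a mouse embryonic stem cell line grown on gelatin in standard stem cell medium, and every group, WT included, received LIF. The labels give neither the strain, the sex, the deleted part of Nat1, the number of clones nor the time in 2i.

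The labels give the deleted gene as Nat1 alone. It is read here as Eif4g2, for which NAT1 is an old name and DAP5 another; this reading is an inference that rests in part on the fall of Eif4g2 on the arrays. The Eif4g2 protein resembles the back part of the scaffold eIF4G1: it binds eIF3 and eIF4A but lacks the binding site for the cap-binding protein eIF4E, and it serves the translation of a subset of mRNAs. It is known to be needed for mouse embryonic stem cells to differentiate. 2i is a pair of kinase inhibitors, one of MEK, which stands above ERK, and one of GSK3, whose inhibition stabilises beta-catenin and turns on Wnt target genes; together with LIF, which acts through STAT3, it holds the cells in the naive, ground state of pluripotency. An mRNA array reads RNA level only, so translation was not measured.

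A level below is the log2 signal of a gene's probe minus the 75th percentile of the array, so 0 is that percentile and 1 unit is 2-fold. A difference is Nat1-null minus WT in 2i+LIF on that scale. A gene was called where limma's moderated test gave an adjusted p below 0.05 (Benjamini-Hochberg over the 24457 genes tested), and adjusted p-values below come from that fit. The filter kept probes with a value on all 12 arrays that were well above background on every array of some group. Levels of different genes rest on different probes and were not compared.

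The genotypes lay on different slides. All 3 WT 2i+LIF arrays were on slide 2 and all Nat1-null arrays on slide 3, so genotype and slide cannot be told apart, and this applies to every value below. Between 49.8% and 55.1% of gene spots were well above background on the Nat1-null 2i+LIF arrays, against 56.3% to 62.7% on the WT 2i+LIF arrays, and replicate arrays correlated at 0.9876 to 0.9972. The SD of the difference between replicates was 0.492 to 0.549 on Nat1-null 2i+LIF arrays and 0.299 to 0.313 on WT 2i+LIF arrays. Probes not well above background on any array had medians of -5.97, -6.54 and -6.67 on the Nat1-null 2i+LIF arrays and of -7.40, -7.19 and -6.75 on the WT 2i+LIF arrays, and differences between levels near these are uncertain. All 7 embryonic stem cell markers were well above background on all 6 arrays, and their summed level (on the linear scale) was 743 to 824 in Nat1-null cells and 780 to 857 in WT cells. Dppa5a, with mean levels of 8.93 in Nat1-null and 9.02 in WT cells, weighs most in that sum. Of the 7, Sox2 and Utf1 were called higher and Nanog lower, and the rest were not called. Whether replicate samples are separate cultures is not given by the labels; the p-values then measure only their spread, which may be technical.

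Eif4g2, the gene taken to be the target, had levels of 1.24, 1.28 and 1.42 on the Nat1-null 2i+LIF arrays, against 4.23, 4.09 and 4.29 on the WT 2i+LIF arrays. The groups were far apart, with a difference of -2.89 (SE 0.07, adjusted p = 1.49e-08), or 7.42-fold lower in Nat1-null cells. The probe was still well above background on all 3 Nat1-null 2i+LIF arrays, and where it lies relative to the deletion is not known from the sources used here. In LIF the difference was -3.21, where 66.8% of all genes were called. A different gene that now carries the symbol Nat1 encodes an N-acetyltransferase; looked up after its values were seen, it did not pass the test in 2i+LIF (-0.28, adjusted p = 0.497), and its groups overlapped.

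Of the 24457 genes tested, 10664 (43.6%) were called: 5131 (21.0%) were higher and 5533 (22.6%) lower in cells without Nat1. Changes of at least 2-fold were called for 2654 genes (10.9%): 825 genes (3.37%) were higher and 1829 (7.48%) lower. Of the called genes 48.1% were higher; without scaling between arrays, which moved the median of all genes to 0.217, it was 75.9% (9893 higher and 3147 lower), and of the changes of at least 2-fold 51.8% were higher, against 31.1%. Directions below are relative to the 75th percentile of the array. With that scaling the median difference over all genes was -0.0051, and the middle 50% of genes lay between -0.33 and 0.27. With so many calls, a gene list is read below against these shares: a list with about 21.0% of its members higher and 22.6% lower behaves like all genes. The excess of falls of at least 2-fold lay among dim genes. Of the genes well above background on all 6 arrays, 667 were higher and 814 lower by at least 2-fold, and 641 called genes were well above background on all WT 2i+LIF arrays but on none of the Nat1-null 2i+LIF arrays, against 21 the other way.

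**Figure D1:**
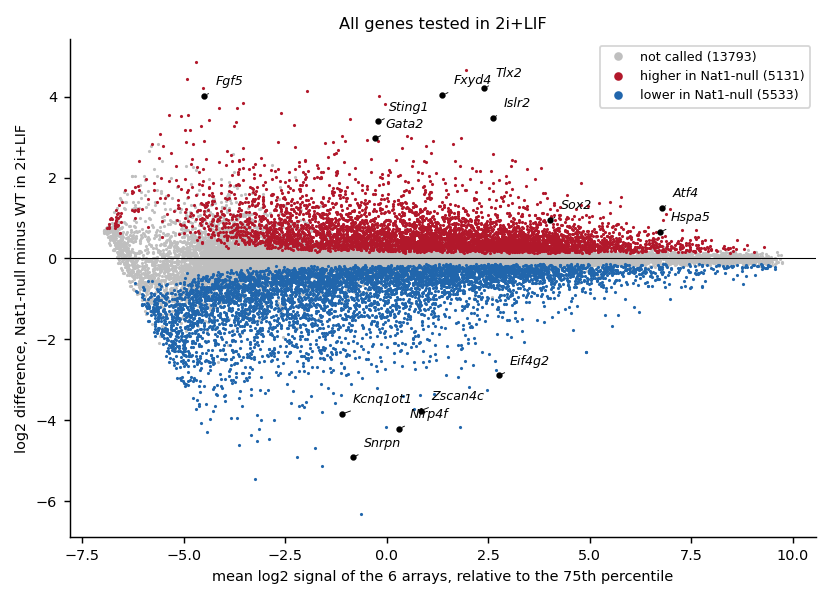
Each point is a gene tested in 2i+LIF, with its mean log2 signal over the 6 arrays on the x axis and its log2 difference, Nat1-null minus WT, on the y axis; called genes are coloured and a few named genes are labelled. Differences run from -6.32 to 4.86, with a median of -0.0051.

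Lists of genes that share a pathway or mark a cell type showed where the calls gathered. Lists with many members higher and few lower in Nat1-null cells were ERK feedback inhibitors, trophoblast genes, LIF and STAT3 genes, chaperones of the endoplasmic reticulum (ER), Nodal and BMP genes and Wnt targets. Neural genes, 2-cell-stage genes, histone genes and paternally expressed imprinted genes leaned the other way. Cytosolic ribosomal proteins and oxidative phosphorylation had a smaller share of calls than all genes with the scaling used here. For the ribosomal proteins this did not hold without scaling between arrays.

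**Figure D2:**
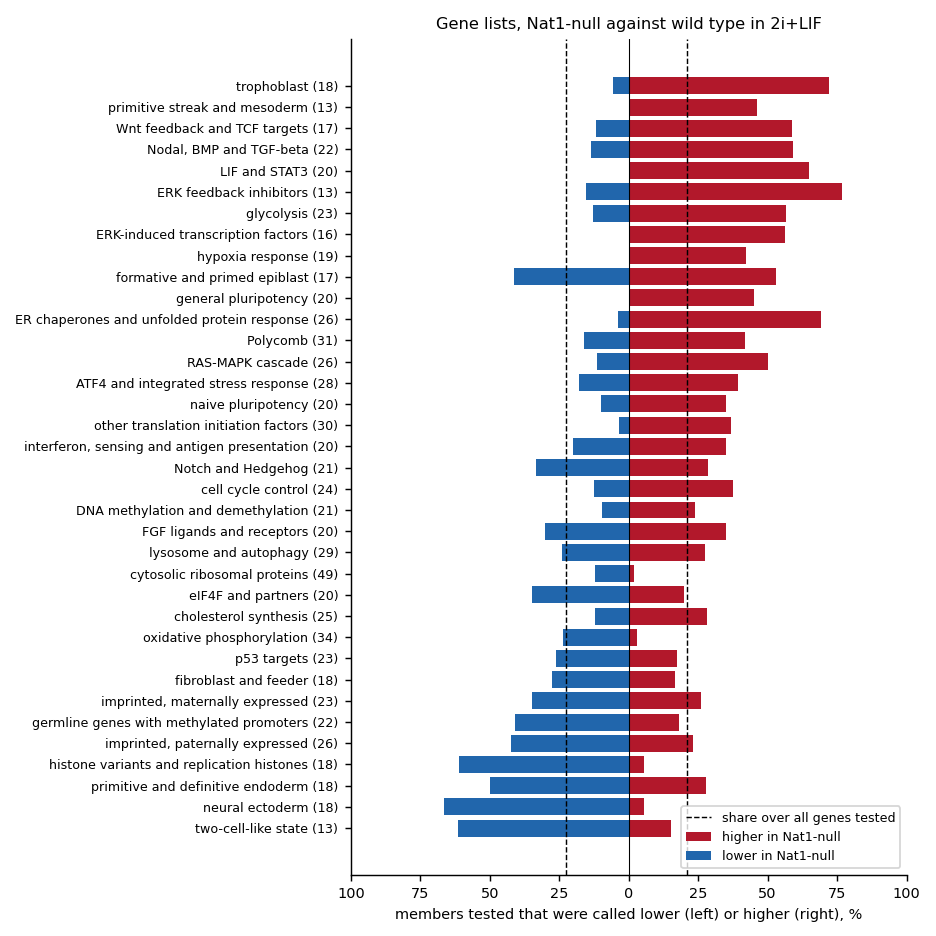
Each row is a gene list with the number of members tested in brackets; bars give the percentage of tested members called lower (left, blue) and higher (right, red) in Nat1-null 2i+LIF. Dashed lines mark the shares over all genes, 22.6% lower and 21.0% higher; rows are sorted by the median difference of the list.

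Among the translation factors, the relatives of Eif4g2 did not move as a block. Of 20 tested genes of eIF4F and its partners, 4 were higher and 7 lower, but without scaling between arrays 9 were higher and 4 lower. Eif4g1, the main scaffold of cap-dependent initiation, differed by 0.11 and did not pass the test (adjusted p = 0.38), and neither did the cap-binding protein Eif4e (-0.10, adjusted p = 0.206). The calls of both depend on settings: without scaling between arrays Eif4g1 passed (adjusted p = 0.019), and without Nat1-null 2i+LIF replicate 2 Eif4e passed (adjusted p = 0.0439). Eif4g3, the second cap-dependent scaffold, had levels of -0.84, -0.44 and -0.55 in Nat1-null cells and 0.72, 0.79 and 0.77 in WT cells. It was 2.58-fold lower in Nat1-null cells, the largest fall of this list after Eif4g2 among the members well above background in both groups (difference -1.37, adjusted p = 3.78e-06). Eif4ebp1, a repressor that sequesters eIF4E, fell as well (-0.41), while Pabpc1, the poly(A)-binding protein that closes the mRNA loop, rose (0.34). Of 30 other initiation factors tested, 11 were higher and 1 lower. The rises were small: Eif6, which keeps 60S subunits apart from 40S, differed by 0.60, Eif2b5, the catalytic subunit of the exchange factor of eIF2, by 0.54, and Eif1a, which helps find the start codon, by 0.51. The one fall was Eif2b3, another subunit of that exchange factor (-0.59).

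ERK signalling is held down by the MEK inhibitor of 2i, and a common readout of it is the set of feedback genes that ERK switches on and that act back on the pathway. Of 13 such feedback inhibitors tested, 10 were higher and 2 lower in Nat1-null cells, with a median difference of 0.53. Spry2, which blocks receptor tyrosine kinase signalling, had levels of 1.26, 0.84 and 1.29 in Nat1-null cells and -0.55, -0.32 and -0.39 in WT cells. Its groups did not overlap, as was so for 57.3% of all genes tested (difference 1.55, SE 0.19, adjusted p = 0.000138). Spry4, of the same family, was at -2.02, -2.68 and -1.56 in Nat1-null cells and -4.68, -4.58 and -4.00 in WT cells. It was 5.03-fold higher in Nat1-null cells (adjusted p = 0.000369). Dusp6, the phosphatase that removes phosphate from ERK, reached 2.98, 2.55 and 3.02 in Nat1-null cells, against 1.39, 1.84 and 1.56 in WT cells (difference 1.25, adjusted p = 0.000154). Spry1 (0.54) and Il17rd (0.57), further inhibitors of FGF receptor signalling, rose by less.

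ERK-induced genes, mostly transcription factors, had 9 of 16 tested members higher and 0 lower (limma, 0 lower also at an unadjusted p below 0.05). Etv4, an ETS factor, had levels of 4.68, 4.57 and 4.84 in Nat1-null cells and 3.01, 3.15 and 3.09 in WT cells (difference 1.61, SE 0.10, adjusted p = 2.03e-06). Its paralog Etv5 differed by 0.12 and did not pass the test (adjusted p = 0.541), with overlapping groups. Egr1, an immediate early gene, was dim at -3.13, -3.09 and -2.98 in Nat1-null cells and -4.60, -4.80 and -4.78 in WT cells, where 2 of 3 arrays were well above background (difference 1.66, adjusted p = 3.77e-07). Fos, another immediate early gene, had levels of -1.11, -0.66 and -1.04 in Nat1-null cells and -1.88, -2.04 and -1.69 in WT cells. Its call (difference 0.94, adjusted p = 0.0152) was lost without Nat1-null 2i+LIF replicate 2 (0.0525) and without WT 2i+LIF replicate 2 (0.0544). Etv1 rose by 1.29. Junb differed by 0.92 (adjusted p = 0.0465). Its call was lost on leaving out any single array of 2i+LIF (0.0665 to 0.13) or of WT LIF (0.0518 to 0.0634). Myc, a target of both ERK and STAT3, had a difference of 1.56 (adjusted p = 0.0346), and that call was lost without Nat1-null 2i+LIF replicate 1 (0.0978) or 3 (0.112) and without WT 2i+LIF replicate 1 (0.0958) or 3 (0.0892).

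**Figure D3:**
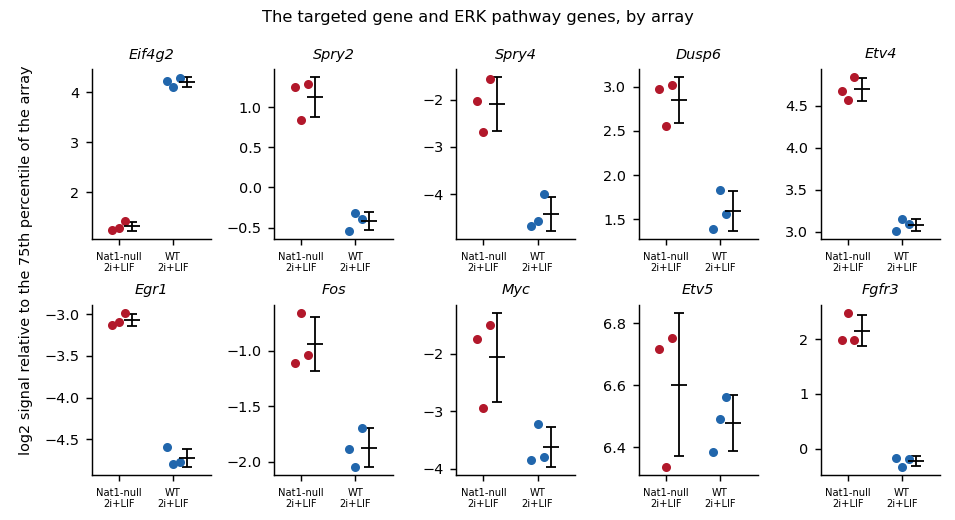
Level of Eif4g2 and 9 genes of the ERK and FGF lists on each array (points), Nat1-null 2i+LIF left and WT 2i+LIF right, as log2 signal with the 75th percentile of the array at 0; the bar is the mean ± SD of 3 arrays. Eif4g2 is lower in Nat1-null cells, the groups overlap for Etv5, and Fgfr3 shows the widest gap of the genes that are higher.

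Upstream of ERK the changes were smaller and mostly upward. In the RAS-MAPK cascade 13 of 26 tested members were higher and 3 lower, with no change of 2-fold. Map3k3, a kinase above the MAPK modules, rose by 0.70 (adjusted p = 1.40e-05), and the adaptors Shc1 (0.62) and Grb2 (0.49), which link receptors to RAS, rose too. Gab1, a docking protein that feeds the same step, fell (-0.55). Sos1, the exchange factor that loads RAS, did not pass the test (0.18, adjusted p = 0.792). The list of FGF ligands and receptors, which also holds other growth factor genes such as Pdgfa, Pdgfra, Egfr and Kit, was split. Of its 20 tested members, 7 were higher and 6 lower. Fgfr3 had levels of 1.99, 2.48 and 1.98 in Nat1-null cells, against -0.17, -0.34 and -0.19 in WT cells. That made it 5.23-fold higher (SE 0.20 on the log2 scale, adjusted p = 1.08e-05), while Fgfr1 did not pass the test (0.09, adjusted p = 0.257). The probes of Fgfr2 disagreed in sign, with a difference of -0.58 for the brightest one and no call for their mean (adjusted p = 0.179). Fgf4, the main autocrine FGF of these cells, differed by 0.16 and missed the threshold (adjusted p = 0.0754), though it passed without Nat1-null LIF replicate 2 (0.0463). Among other ligands Fgf3 (1.88) and Pdgfa (1.38) rose, while Fgf17 was at least 3.14-fold lower and the receptor Pdgfra at least 2.5-fold lower in Nat1-null cells. Here and below, "at least" marks a bound: no array of the lower group read the gene well above background, and its level was set to the lowest signal that was, or to the gene's own if higher.

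Some naive pluripotency genes rose modestly, and most did not pass the test. Of 20 tested naive pluripotency genes, 7 were higher and 2 lower, with a median difference of 0.15. Klf4 rose by 0.87 and Klf5 by 1.10, both Krüppel-like factors of self-renewal, and Tfcp2l1 (0.73) and Tbx3 (0.79), which stand below LIF and Wnt inputs, rose too. Esrrb (-0.15, adjusted p = 0.259), Zfp42 (-0.05, 0.801) and Pou5f1 (0.02, 0.889) did not pass the test. Nanog had levels of 3.79, 3.99 and 3.88 in Nat1-null cells and 4.31, 4.32 and 4.29 in WT cells on its brighter probe, a difference of -0.42 (adjusted p = 0.000234). Its other probe gave 0.15, and the call was lost with the mean of the probes (adjusted p = 0.16) and without scaling between arrays (0.069). Klf2, a target of the MEK branch of 2i, had a difference of -0.33 (adjusted p = 0.0943), which passed without Nat1-null LIF replicate 2 (0.0303), with normexp background correction (0.0344), with quantile normalisation (0.0266) and with a replicate block (0.0452). Prdm14, a repressor of FGF signalling and DNA methylation, differed by 0.14 (adjusted p = 0.117), and passed with normexp (0.0152) and without scaling (0.00297). Dppa3 differed by 0.21 (adjusted p = 0.117) and passed without Nat1-null 2i+LIF replicate 3 (0.0382) and without scaling (0.0124).

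General pluripotency genes had 9 of 20 tested members higher and 0 lower (also 0 in the same limma fit at an unadjusted p below 0.05). Sox2, the partner of Oct4, had levels of 4.54, 4.39 and 4.56 in Nat1-null cells and 3.58, 3.55 and 3.51 in WT cells, so every Nat1-null array stood above every WT array (difference 0.95, SE 0.07, adjusted p = 6.19e-06). Foxd3, a repressor of lineage enhancers, was 5.47-fold higher, and Trim71 (1.26) and Utf1 (1.05) rose as well.

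Genes of the formative and primed epiblast, the state after the naive one, moved in both directions: 9 of 17 tested members were higher and 7 lower, and only 1 was not called. Fgf5, its classical marker, had levels of -3.15, -1.96 and -2.36 in Nat1-null cells and -6.12, -6.49 and -6.91 in WT cells, where no array was well above background, so it was at least 8.18-fold higher (adjusted p = 6.16e-06). Otx2, which opens epiblast enhancers, had 3.78, 3.78 and 3.71 in Nat1-null cells and 2.34, 2.42 and 2.42 in WT cells (difference 1.36, adjusted p = 5.78e-07). Pou3f1, a POU factor of the primed state, rose by 0.48 (adjusted p = 0.00263). On the other side Lin28b, which blocks let-7 processing, was 7.39-fold lower in Nat1-null cells, and Sox4 (-2.47), Sox3 (-2.32) and the cadherin Cdh2 (-2.22) fell too.

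The de novo DNA methyltransferases, which 2i holds low, did not move together. Dnmt3a had levels of -0.61, -0.40 and -0.50 in Nat1-null cells and 1.04, 0.85 and 0.87 in WT cells, a fall of 2.68-fold (adjusted p = 0.000136). Dnmt3b was at 4.23, 4.01 and 4.40 in Nat1-null cells, against 3.03, 3.41 and 3.19 in WT cells (difference 1.00, adjusted p = 0.000363). Dnmt3l, the cofactor without catalytic activity, was at 2.63, 2.83 and 2.85 in Nat1-null cells and 0.95, 1.15 and 1.11 in WT cells, 3.24-fold higher (adjusted p = 3.28e-05). Over the 21 tested genes of DNA methylation and demethylation, 5 were higher and 2 lower. Trim28, a corepressor that guards imprints, rose by 0.68.

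The Wnt branch of 2i was also read, from a list of feedback genes, TCF targets and TCF factors. Of its 17 tested members, 10 were higher and 2 lower in Nat1-null cells, with a median difference of 0.78. Axin2, a negative regulator that beta-catenin induces, had levels of -0.67, -0.05 and -0.71 in Nat1-null cells and -2.07, -2.30 and -2.02 in WT cells on the brighter of its probes (difference 1.65, adjusted p = 0.000196), and its other probe gave 0.58. Sp5, a direct Wnt target that represses others, had levels of 2.14, 1.01 and 2.07 in Nat1-null cells, against -0.67, -0.47 and -0.46 in WT cells. It was 4.83-fold higher (adjusted p = 8.43e-05). Cdx1 rose by 0.86, Ccnd1 by 0.94, and the TCF factors Lef1 and Tcf7l1 by 1.30 and 1.31. The feedback inhibitor Nkd1 fell by 1.58 on the log2 scale (adjusted p = 0.000851).

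Of the Wnt list members with a promoter entry, Sp5 is the one whose promoter held a TCF motif, so its sequence is shown. The letters searched were CTTTGATC and CTTTGAAC, on both strands, in the 250 bases before the start site. They were found in 1 of 14 list promoters with an entry (7.14%) and in 513 of 27025 promoters in all (1.9%). The sequence is from RefSeq, build GRCm38.p6, chr2:70474673-70474922 on the plus strand, with the match in capitals:

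Sp5: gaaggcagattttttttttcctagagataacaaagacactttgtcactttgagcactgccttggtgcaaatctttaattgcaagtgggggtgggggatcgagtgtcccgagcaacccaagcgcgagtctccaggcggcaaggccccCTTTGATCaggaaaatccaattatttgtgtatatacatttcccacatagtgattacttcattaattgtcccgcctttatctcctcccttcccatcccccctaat

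LIF was present in both groups, and genes of its pathway were mostly higher in Nat1-null cells. Of 20 tested members, 13 were higher and 0 lower (0 as well at an unadjusted p below 0.05 in limma), with a median difference of 0.62. Socs3, the feedback inhibitor of the LIF receptor and a direct STAT3 target, had levels of 5.70, 5.83 and 5.74 in Nat1-null cells and 4.76, 4.73 and 4.78 in WT cells, with no overlap (difference 1.00, adjusted p = 0.000122). The Nodal, BMP and TGF-beta list had 13 of 22 tested members higher and 3 lower. Bmp4, the ligand, was 2.86-fold higher, and the direct BMP targets Id1 (1.16) and Id3 (1.85) and the inhibitory Smad7 (1.28) rose with it. Smad6, another inhibitory Smad, also lacked a value on 1 Nat1-null array; it was at 0.52 and 0.56 on the other 2 and at -1.49, -1.48 and -1.38 on the WT arrays, and rose by 1.99 in a limma fit, chosen after seeing the data, that added genes with missing values (adjusted p = 9.29e-06).

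Genes of other lineages differed by lineage, and trophoblast genes were mostly higher. Of 18 tested trophoblast genes, 13 were higher and 1 lower in Nat1-null cells, with a median difference of 1.77, and 10 rose by at least 2-fold. Gata2, a GATA factor of trophoblast and blood, had levels of 1.18, 1.19 and 1.20 in Nat1-null cells and -1.36, -2.01 and -1.97 in WT cells. It was 7.82-fold higher (adjusted p = 4.46e-07). Krt18, a keratin of simple epithelia, had 3.21, 3.27 and 3.29 in Nat1-null cells and 1.30, 1.36 and 1.45 in WT cells (difference 1.88, adjusted p = 8.85e-07), and its relative Krt19 rose by 1.94. The homeobox genes Rhox6 (2.42) and Rhox9 (1.98) rose too, but they are close paralogs whose probes may not tell them apart. Ascl2, needed for the placenta and imprinted, rose by 1.92. Of the defining trophoblast markers, Cdx2, Elf5 and Tpbpa did not pass the filter and were not well above background on any 2i+LIF array, and of 6 markers 2 were well above background on all Nat1-null 2i+LIF arrays and 1 on all WT 2i+LIF arrays. The summed level of the 3 that passed the filter, Gata3, Tfap2a and Plac1, was 1.06 to 2.04 in Nat1-null cells and 0.41 to 0.418 in WT cells. In a bulk sample, more cells of a type and more RNA per cell cannot be told apart, and a part of other cells in these values was not tested.

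Primitive streak and mesoderm genes had 6 of 13 tested members higher and 0 lower (limma, and 0 at an unadjusted p below 0.05). Eomes, a T-box factor of streak and trophoblast, had levels of 1.84, 1.62 and 1.91 in Nat1-null cells and 0.33, 0.23 and 0.41 in WT cells (difference 1.47, adjusted p = 5.93e-05). Tbx20, a T-box factor of the heart, was at least 9.57-fold higher, and Msx2 (1.17) and Gsc (1.09) rose. Mixl1, Mesp1, Wnt3a and Msgn1 did not pass the filter and were not well above background on any 2i+LIF array. T, the brachyury factor of the streak, was left out of that fit because 1 Nat1-null 2i+LIF array had an outlier spot. Its levels were -0.33 and -0.17 on the other 2 Nat1-null arrays and -2.41, -2.24 and -2.26 on the WT arrays. In the limma fit with such genes added, T was higher by 2.05 (SE 0.13, adjusted p = 6.21e-06). That fit added 6 list members, T and Smad6 among them. Of the others, Zic5 of the epiblast list fell by 0.94 on the log2 scale (adjusted p = 0.000577). Elf5, not well above background on any 2i+LIF array, rose by 1.65 (0.00883). Dkk1 (-0.14, 0.918) and Twist2 (0.38, 0.375) did not pass the test. Summed over the mesoderm markers Tbx6 and Kdr, the 2 of 4 that passed the filter, the level was 10.3 to 11.1 in Nat1-null cells and 10.1 to 11.8 in WT cells. Nearly all of that sum is Kdr, with mean levels of 3.38 in Nat1-null and 3.43 in WT cells, against -2.03 and -2.31 for Tbx6.

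Neural genes were lower. Of 18 tested members of the neural ectoderm list, 1 was higher and 12 were lower, with a median difference of -0.69. Tubb3, the neuronal beta-tubulin, had levels of 0.54, -0.18 and 0.53 in Nat1-null cells and 2.57, 2.82 and 2.79 in WT cells, 5.38-fold lower (adjusted p = 2.82e-05). Map2, a dendritic microtubule protein, was at least 2.27-fold lower, and Pax6 was not well above background on any Nat1-null 2i+LIF array. The one that was higher was Hes5, a Notch target (2.83-fold, with 2 of 3 WT arrays well above background). The probes of Sox1 disagreed in sign, with -1.01 for the brighter one. Summed over 5 neural markers, the level was 1.89 to 2.53 in Nat1-null cells and 7.85 to 8.94 in WT cells.

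Endoderm genes moved in both directions. Of 18 tested, 5 were higher and 9 lower. Sparc, a matrix protein made in bulk by parietal endoderm, rose by 1.10. Lamb1, a laminin chain, fell by 1.61 on the log2 scale, Hnf4a, a factor of visceral endoderm, by 1.71, and Cubn, an endocytic receptor, was at least 3.86-fold lower. Among the endoderm genes well above background on all 12 arrays, 4 of 11 were higher and 5 lower, with a median of 0.36, against -0.39 over all 18, and without the genes of chromosome 8 the median was 0.23. Summed over 6 markers of primitive endoderm, the level on the linear scale was 1.57 to 2.18 in Nat1-null cells and 1.34 to 1.46 in WT cells. Fibroblast and feeder genes had 3 of 18 tested members higher and 5 lower. Col1a1 (-1.06) and Thy1 (-1.24) were among the falls, and the rises were Col3a1 (1.18), Col5a1 (0.52) and Tagln (0.48). The summed level of the 7 of 8 fibroblast markers that passed the filter was 0.639 to 0.743 in Nat1-null cells and 1.18 to 1.34 in WT cells. Postn and Lum were not well above background on any 2i+LIF array.

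Several imprinted genes, which are expressed from one parental copy under DNA methylation of a control region, had wide differences. Of 26 tested paternally expressed genes, 6 were higher and 11 lower, 9 of them by at least 2-fold. Snrpn, a splicing protein gene of the Prader-Willi region, had levels of -3.47, -2.90 and -3.54 in Nat1-null cells and 1.67, 1.51 and 1.67 in WT cells. On that probe it was 30.2-fold lower (difference -4.92, SE 0.24, adjusted p = 4.48e-07), and its 3 probes ranged from -4.92 to -2.54. Kcnq1ot1, the long RNA that silences its neighbours on the paternal copy, had -2.90, -2.77 and -3.43 in Nat1-null cells and 0.92, 0.76 and 0.76 in WT cells, 14.4-fold lower (adjusted p = 6.16e-06). Slc38a4, an amino acid transporter, had 1.02, 2.14 and 1.03 in Nat1-null cells and 3.94, 3.94 and 3.92 in WT cells (difference -2.54). Dlk1, a Notch-related ligand, was at least 6.52-fold lower and Peg3, a zinc finger protein, at least 3.46-fold lower, both on the brighter probe. The probes of Dlk1 ranged from -3.44 to -1.28 and those of Peg3 from -3.59 to -0.36. Usp29, next to Peg3, was at least 2.37-fold lower. Mest, a hydrolase-like enzyme, and Nnat, a small membrane protein, were picked after their values were seen. Mest was 4.73-fold lower (adjusted p = 5.67e-07), and Nnat was 4.38-fold higher in Nat1-null cells (adjusted p = 3.40e-07), so the list did not move as one. Among the 19 members well above background on all 12 arrays, 6 were higher and 5 lower, with a median of 0.06, against -0.32 over all 26.

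Maternally expressed imprinted genes had 6 of 23 tested members higher and 8 lower, with a median difference of -0.19 that became 0.03 without scaling between arrays. Mirg, a long RNA that hosts miRNAs in the Dlk1 region, had levels of -4.06, -4.16 and -4.25 in Nat1-null cells and -0.68, -0.41 and -0.63 in WT cells (difference -3.58, adjusted p = 0.00214), with 2 of 3 Nat1-null arrays well above background. Grb10, an adaptor that restrains growth factor receptors, had 0.58, 0.78 and 0.78 in Nat1-null cells and 2.02, 2.16 and 2.07 in WT cells (-1.37). H19, a non-coding RNA, was at -3.91, -3.62 and -3.38 in Nat1-null cells and -2.52, -2.63 and -2.05 in WT cells (-1.24, adjusted p = 0.00114). Kcnq1, in the domain of Kcnq1ot1, rose by 2.08 (adjusted p = 0.0109), and Ascl2, in the same domain, by 1.92. Of the other listed genes of that domain, Slc22a18 (1.13), Tssc4 (0.52) and Cd81 (0.48) rose. Cdkn1c fell (-0.47, adjusted p = 0.0228), and Phlda2 did not pass the test (-0.36, 0.252). A link of these values to Kcnq1ot1 was not tested. DNA methylation was not measured.

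**Figure D4:**
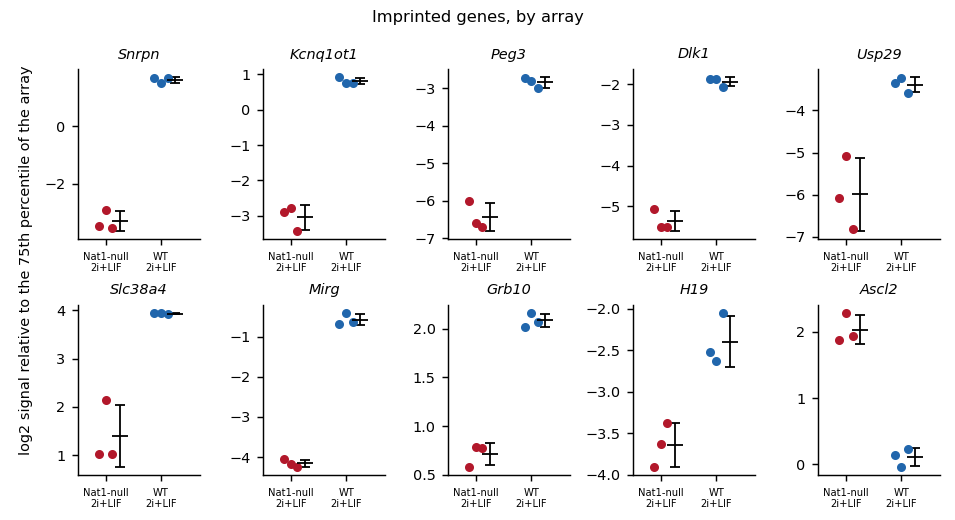
Level of 10 imprinted genes on each array (points), Nat1-null 2i+LIF left and WT 2i+LIF right, as log2 signal with the 75th percentile of the array at 0; the bar is the mean ± SD of 3 arrays. All but Ascl2 are lower in Nat1-null cells, and Peg3, Dlk1 and Usp29 were not well above background on the Nat1-null arrays.

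Genes of the 2-cell embryo, which a few stem cells in a culture switch on at any time, were lower. Of 13 tested, 2 were higher and 8 lower, with a median difference of -1.66 and all 8 falls of at least 2-fold. Zscan4c, of a telomere-protecting family, had levels of -0.88, -1.07 and -1.18 in Nat1-null cells and 2.69, 2.79 and 2.67 in WT cells. It was 13.6-fold lower (SE 0.08 on the log2 scale, adjusted p = 7.22e-09). Zscan4a (-3.71) and Zscan4f (-3.24) gave like values, but these copies are near-identical and their probes may read each other's RNA. Usp17la (-2.81) and Tmem92 (-1.86) fell too, though the other probe of Usp17la gave -0.35. Whether fewer cells were in that state or each made less RNA cannot be told apart here. Germline genes with methylated promoters had 4 of 22 tested members higher and 9 lower, with a median of -0.21; without scaling between arrays it was 5 and 5, with a median of 0.02. The falls included Ddx4, the germ cell helicase Vasa (-1.42), Mov10l1, a helicase of the piRNA pathway (-2.02), and Tex19.1, which restrains retrotransposons (-1.19).

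Chaperones and other genes of the unfolded protein response of the ER were higher on a broad front and by small amounts. Of 26 tested, 18 were higher and 1 lower, with a median difference of 0.31 and only Derl3 rising by 2-fold. Hspa5 (BiP), the main ER chaperone, had levels of 7.04, 7.06 and 7.08 in Nat1-null cells and 6.35, 6.45 and 6.41 in WT cells, 1.57-fold higher (SE 0.05 on the log2 scale, adjusted p = 5.34e-06). Derl3, which helps export misfolded proteins from the ER, had 1.74, 1.65 and 1.89 in Nat1-null cells and 0.08, 0.20 and 0.10 in WT cells (difference 1.63, adjusted p = 1.92e-07). Hyou1 (0.85), Sdf2l1 (0.86), Pdia4 (0.63) and Creld2 (0.62) rose with them. The single fall was Hsp90b1 (GRP94), the ER member of the HSP90 family, at 6.08, 6.16 and 6.15 in Nat1-null cells and 6.33, 6.34 and 6.33 in WT cells (difference -0.20, adjusted p = 0.0045).

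The ER stress element, CCAAT followed by 9 bases and CCACG, is the sequence through which ATF6 and XBP1 act on many of these genes. Searched on both strands in the 250 bases before the start site, it was found in 9 of 22 promoters of this list with an entry (40.9%) and in 35 of 27025 promoters in all (0.13%). Of the 9 genes with the element, 6 were higher and 1 lower, with a median difference of 0.46; of the 13 tested genes without it, 9 were higher and 0 lower in limma (0 also at an unadjusted p below 0.05), with a median of 0.22. The promoters of the gene with the largest rise, of the main chaperone and of the one gene that fell are shown side by side because all hold the element. They are from RefSeq, build GRCm38.p6, with the element in capitals: Derl3 at chr10:75893148-75893397 (plus strand), Hspa5 at chr2:34771840-34772089 (plus strand), and Hsp90b1 at chr10:86705445-86705694 (minus strand), which holds it more than once.
Derl3: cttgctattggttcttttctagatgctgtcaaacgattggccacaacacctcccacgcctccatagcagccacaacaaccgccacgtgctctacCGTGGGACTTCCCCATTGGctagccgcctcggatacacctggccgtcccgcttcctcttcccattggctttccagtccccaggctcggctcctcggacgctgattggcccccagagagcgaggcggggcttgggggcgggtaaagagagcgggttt
Hspa5: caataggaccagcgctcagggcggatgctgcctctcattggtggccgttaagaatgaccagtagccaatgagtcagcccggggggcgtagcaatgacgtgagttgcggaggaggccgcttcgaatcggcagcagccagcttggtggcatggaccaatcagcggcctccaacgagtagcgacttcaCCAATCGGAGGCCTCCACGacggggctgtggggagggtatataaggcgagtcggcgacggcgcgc
Hsp90b1: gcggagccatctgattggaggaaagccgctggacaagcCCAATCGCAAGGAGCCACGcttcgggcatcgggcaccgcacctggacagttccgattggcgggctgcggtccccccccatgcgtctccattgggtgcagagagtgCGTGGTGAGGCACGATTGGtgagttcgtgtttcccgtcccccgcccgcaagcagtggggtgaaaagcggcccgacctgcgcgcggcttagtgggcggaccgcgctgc

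Genes of the integrated stress response, which the factor ATF4 drives when eIF2 is phosphorylated, were mixed. Atf4 itself had levels of 7.37, 7.31 and 7.48 in Nat1-null cells and 6.10, 6.28 and 6.05 in WT cells, 2.37-fold higher (adjusted p = 2.72e-05), and its protein was not measured. Of 28 tested members, 11 were higher and 5 lower. Asns, asparagine synthetase, had levels of 7.70, 7.58 and 7.78 in Nat1-null cells and 7.28, 7.39 and 7.33 in WT cells (difference 0.36, adjusted p = 0.00314). Stc2 (1.01), a secreted stress protein, and Ppp1r15a (0.75), which reverses eIF2 phosphorylation, rose as well. Nupr1, a stress-induced chromatin protein, had 2.62, 3.35 and 3.01 in Nat1-null cells and 3.82, 3.82 and 3.63 in WT cells (difference -0.76, adjusted p = 0.0135), a call lost without scaling between arrays (0.0687). Phgdh, the first enzyme of serine synthesis, was 2.79-fold lower (adjusted p = 9.37e-05).

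The composite element bound by ATF4 and its partners was searched as TGATGCAA and TGATGAAA, on both strands of the same window. It was found in 9 of 26 promoters of this list (34.6%) and in 509 of 27025 (1.88%). Of 7 tested genes with it, 3 were higher and 2 lower, and of 17 tested genes without it, 7 were higher and 2 lower. Asns and Nupr1, which moved in opposite directions, both hold it, at chr6:7693210-7693459 and chr7:126625471-126625720 (both minus strand, GRCm38.p6, element in capitals).
Asns: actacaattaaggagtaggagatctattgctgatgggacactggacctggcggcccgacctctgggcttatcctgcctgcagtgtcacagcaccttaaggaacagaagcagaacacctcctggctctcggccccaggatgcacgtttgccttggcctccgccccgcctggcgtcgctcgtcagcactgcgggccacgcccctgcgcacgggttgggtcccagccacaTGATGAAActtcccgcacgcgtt
Nupr1: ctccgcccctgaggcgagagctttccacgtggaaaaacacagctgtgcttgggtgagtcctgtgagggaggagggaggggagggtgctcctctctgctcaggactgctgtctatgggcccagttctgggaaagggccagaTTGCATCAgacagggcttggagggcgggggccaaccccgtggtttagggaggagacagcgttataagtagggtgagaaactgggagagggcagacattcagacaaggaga

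Metabolic genes rose in some pathways more than in others. Glycolysis had 13 of 23 tested members higher and 3 lower, with a median difference of 0.44. Hk2, the hexokinase that starts the pathway, had levels of 5.13, 5.12 and 5.18 in Nat1-null cells and 4.08, 3.98 and 4.18 in WT cells, 2.08-fold higher (adjusted p = 1.64e-06). Pfkl (1.02) and Pfkfb4 (1.20), which set the flux through phosphofructokinase, rose too, and Ldhb, the lactate dehydrogenase chain that favours pyruvate, fell by 1.32 on the log2 scale. Hypoxia response genes had 8 of 19 tested members higher and 0 lower (limma, with 0 at an unadjusted p below 0.05), among them Car9 (1.06) and Ndrg1 (0.96). Cholesterol synthesis had 7 of 25 higher and 3 lower.

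For the genes of the basic machinery the direction depends on the scaling. Of 49 tested cytosolic ribosomal protein genes, 1 was higher and 6 were lower, with a median of -0.04, and of 34 oxidative phosphorylation genes 1 was higher and 8 were lower, with a median of -0.06. Without scaling between arrays these lists gave 33 higher (median 0.18) and 13 higher (median 0.16); relative to all genes both remained below the median.

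Chromatin genes changed by group. Of 31 tested Polycomb genes, 13 were higher and 5 lower. The core subunit Suz12 of the complex PRC2 averaged 5.04 ± 0.05 in Nat1-null cells and 4.06 ± 0.05 in WT cells (SD, n = 3 each; difference 0.98, adjusted p = 3.37e-06), and the PRC2 cofactors Aebp2 (0.98) and Jarid2 (0.76) and the PRC1 subunit Pcgf1 (0.97) rose. Yaf2, a further PRC1 subunit, fell (-1.01). Among 18 tested histone genes, 1 was higher and 11 were lower; H2bc4 fell by 1.89 on the log2 scale and H1f4, a linker histone, by 0.73, but histone genes are near-identical copies, and without scaling the counts were 3 higher and 6 lower.

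Interferon, sensing and antigen presentation genes were split, with 7 of 20 tested members higher and 4 lower. Sting1, the sensor adaptor for cytosolic DNA, had levels of 1.58, 1.33 and 1.54 in Nat1-null cells, against -1.81, -1.95 and -1.94 in WT cells. It was 10.5-fold higher (adjusted p = 9.47e-08). Oas1a, a sensor of double-stranded RNA, rose by 1.86 and Bst2, which tethers budding viruses, by 1.59. B2m, the light chain of MHC class I, had 1.05, 1.82 and 1.30 in Nat1-null cells and 3.05, 2.93 and 3.03 in WT cells (-1.61). Of 2 listed subunits of the immunoproteasome, Psmb9 fell (-1.39) and Psmb8 rose (1.39, adjusted p = 0.00755). The call of Psmb8 was lost with normexp background correction (0.871) and with quantile normalisation (0.0797).

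Lists for p53 targets (4 higher and 6 lower of 23), lysosome and autophagy (8 and 7 of 29) and Notch and Hedgehog signalling (6 and 7 of 21) had calls in both directions. Among their members, Tfe3, a factor of lysosome genes and of the exit from pluripotency, rose by 1.08, and Gpnmb was at least 3.98-fold higher. Gabarapl1, an autophagosome protein, fell (-1.25), as did the Hedgehog transducers Smo (-0.90) and Gli3 (-0.88). Of 24 tested cell cycle genes 9 were higher and 3 lower, with E2f1 (0.60), E2f2 (0.71) and Cdk2 (0.67), which act at entry into S phase, among the rises.

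Genes outside these lists were among the widest differences of genes with a symbol that were well above background on all 6 arrays. Tlx2, a homeobox gene, had levels of 4.66, 4.16 and 4.69 in Nat1-null cells and 0.33, 0.30 and 0.27 in WT cells, 18.5-fold higher (adjusted p = 3.97e-08). Fxyd4, a regulator of the sodium pump, averaged 3.38 ± 0.05 in Nat1-null cells and -0.65 ± 0.14 in WT cells (SD, n = 3 each), 16.4-fold higher. Islr2 (3.47), Nkx6-2 (3.46), Crb3, a polarity protein of epithelia (3.30), Pmel, of pigment granules (3.04), and Mgll, a lipase (3.03), followed. The widest falls besides Snrpn, Kcnq1ot1 and the Zscan4 genes were those of Nlrp4f (-4.21), 1700013H16Rik (-4.17), Prkar2b, a regulatory subunit of protein kinase A (-4.16), and Tspan7, a tetraspanin (-3.80).

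Genes well above background in 1 group alone can be given only as bounds. Those higher in Nat1-null cells were 5830444B04Rik (at least 10.8-fold), Tbx20, Adgrl2, an adhesion receptor (at least 8.54-fold), and 4930565N06Rik (at least 8.45-fold). Lower in Nat1-null cells were Fign, a microtubule-severing protein (at least 13.8-fold), Zfp618 (at least 12.9-fold, though its probes ranged from -4.52 to -0.76), Cacna2d1, a calcium channel subunit (at least 11.9-fold), and Kcnmb4, a potassium channel subunit (at least 11.1-fold, with probes from -4.37 to -1.17).

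The differences were also read by chromosome. On chromosome 8, the median difference over 819 genes was -0.342. There, 441 genes (53.8%) were lower and 63 (7.69%) higher in Nat1-null cells, while the other 18 autosomes had medians of -0.052 to 0.102 and 15.6% to 30.2% of genes lower. On single Nat1-null 2i+LIF arrays the median of chromosome 8 was -0.334, -0.327 and -0.346 relative to the WT mean, against -0.012, 0.008 and 0.003 on the WT 2i+LIF arrays. The Nat1-null LIF arrays had -0.332, -0.367 and -0.39, so the shift was there in both media. It ran along the whole chromosome, with medians of -0.495 to -0.228 over 10 equal runs of its genes in order. For the 681 genes of the chromosome well above background on all 6 arrays, the median was -0.325, a level of 0.798 of that in WT cells, against 1.05 for 11633 such genes of the other autosomes. DNA copy number was not measured. The called genes named above that lie on chromosome 8 include Tubb3, Sox1 (on its brighter probe), Nkd1, Gab1 and Eif4ebp1, which were lower, and Bst2, which was higher. Without its genes, 10160 of the remaining genes were called, 5068 higher and 5092 lower.

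**Figure D5:**
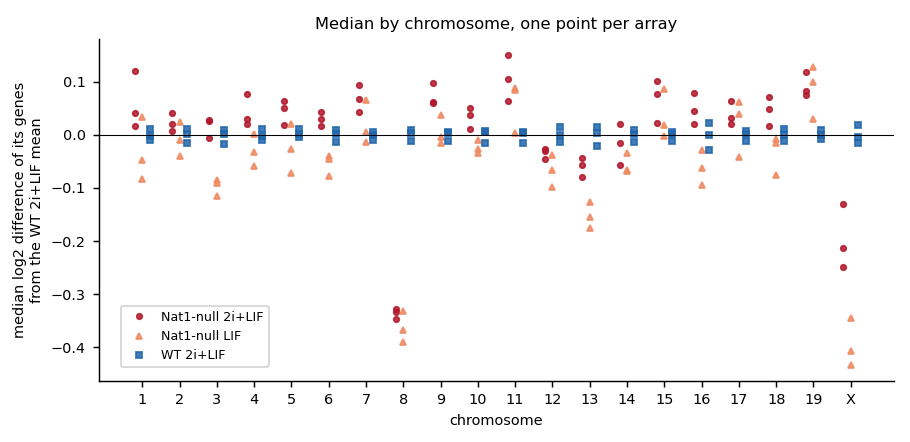
Median log2 difference of the genes of each chromosome from the mean of the WT 2i+LIF arrays, with a point for each array of Nat1-null 2i+LIF, Nat1-null LIF and WT 2i+LIF. All 6 Nat1-null arrays lie between -0.327 and -0.39 on chromosome 8, while the group difference in 2i+LIF is at or above -0.052 on each other autosome.

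On the X chromosome, 95 of 611 genes were higher and 215 lower, with a median of -0.203. The Y-linked genes Ddx3y (-0.32), an RNA helicase, and Eif2s3y (-0.55), a subunit of eIF2, were well above background on all 6 arrays and had small falls that were lost without scaling between arrays (adjusted p = 0.342 and 0.102).

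The effect of Nat1 loss was then set against the same loss in LIF, by a test of the interaction of genotype and medium. The WT LIF arrays, which enter it, stood apart. The summed level of 7 fibroblast markers was 0.487 to 0.657 on the Nat1-null LIF arrays and 132 to 150 on the WT LIF arrays, and that of 7 embryonic stem cell markers was 728 to 856 in Nat1-null LIF cells and 489 to 507 in WT LIF cells. The fibroblast sum is on the linear scale and includes Acta2, which differed widely in LIF, so a single gene can dominate it. Of the 18 tested fibroblast and feeder genes, 16 were lower and 0 higher in Nat1-null cells in LIF (limma). Their median was -2.44, and 32.9% of all genes were lower. Genes of chromosome 11 had medians of 0.327 to 0.364 above the WT 2i+LIF mean on the WT LIF arrays, and the median genotype difference of that chromosome was -0.279 in LIF and 0.102 in 2i+LIF. The part of these in the interaction was not tested. The interaction was called for 12163 genes (49.7%), 5766 (23.6%) with a more positive and 6397 (26.2%) with a more negative effect in 2i+LIF; without scaling these were 10268 and 2810. Egr1, an ERK-induced gene, was among them: it differed by 1.66 between genotypes in 2i+LIF and by -3.15 in LIF (interaction 4.81, adjusted p = 8.27e-09). Its list was split, with 5 of 16 tested members called positive and 4 negative for the interaction. The median genotype difference of that list in LIF was 0.80. ERK feedback inhibitors had 8 of 13 called positive and 1 negative, with a median of -0.48 in LIF. Dnmt3b differed by 1.00 in 2i+LIF and -2.20 in LIF (interaction 3.21, adjusted p = 1.56e-06), and Krt18 by 1.88 and -5.25 (interaction 7.14, adjusted p = 6.80e-09). Trophoblast genes had 13 interaction values called positive and 0 negative (limma, 0 also at an unadjusted p below 0.05), and naive pluripotency genes 2 positive and 17 negative. Genes called in both media with opposite signs, and for the interaction, numbered 1706 (6.98%).

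Within Nat1-null cells, the 2i medium itself could be compared with LIF on the same slide. This contrast shares the Nat1-null 2i+LIF arrays with the comparison above, so its values are given side by side and not correlated. It called 9077 genes (37.1%), 5222 (21.4%) higher and 3855 (15.8%) lower in 2i+LIF, but 1910 higher and 6714 lower without scaling. Sp5 was higher in 2i+LIF than in LIF by 4.70 (adjusted p = 1.32e-06) and Axin2 by 3.01 (6.60e-06). Dusp6 was lower in 2i+LIF by a difference of -1.83 (2.08e-05), Spry4 by -1.95 (0.00156) and Egr1 by -0.97 (1.38e-05). Spry2 (-0.16, 0.556) and Fos (0.33, 0.348) did not pass. Fgf5 was higher in 2i+LIF by 1.39 (0.00536). Snrpn differed by 0.04 (0.917) and did not pass, with a mean level of -3.34 in Nat1-null LIF cells. Eif4g2 differed by 0.03 between media in Nat1-null cells (adjusted p = 0.731).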

How the data were processed

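Total RNA was labelled with Cy3 and hybridised to 12 single-colour Agilent arrays. The deposited intensity values are processed signals that, per the file headers, Agilent Feature Extraction 10.7.3.1 made from the scans by subtracting background within each array. In the deposited series table the authors give log2 values with each array's 75th percentile at 0, which served as an alternative. RefSeq transcripts of GRCm38.p6 named 27656 of 55681 probes.

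Signals without control and outlier spots were put on the log2 scale and averaged by probe, less the array's 75th percentile. Kept were 33286 probes that had a value on all 12 arrays and were well above background on every array of some group; a probe with an outlier spot on any array was left out. The brightest probe stood for a gene, leaving 24457 genes. limma 3.58.1 (R 4.3.3) was fitted to all 12 arrays with 1 mean per group (8 residual degrees of freedom), so that the spread is shared, with Benjamini-Hochberg adjustment over all genes and calls at 0.05. The fit was tested on simulated data. Precision is limited by the number of arrays. Figures were drawn with matplotlib 3.10.9, and tables with pandas 2.3.3 in Python 3.11.15.

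The comparison, its gene lists and its fixed genes were chosen with earlier results of these data known, so no list is independent support for a direction. Genes were named by rule: Eif4g2, a fixed set of signalling and pluripotency genes, the 8 largest rises and falls among bright called genes without overlap, the 4 largest each way among genes measured in 1 group alone, up to 6 called members of each of 37 lists, and the 5 largest interaction values each way. Replicate numbers did not pair the samples: the residuals of same-numbered arrays correlated under 0.1, except for replicate 2 of the Nat1-null groups (0.3015).

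Alternatives were other background corrections, scalings, filters and probe rules, the 6 arrays of 2i+LIF alone, a replicate block, and leaving out each array. A slide block could not be fitted because each slide held 1 genotype.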

Additional observations from a re-analysis of the deposited data

Results flagged for a closer look

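Among the 243 genes named for the comparison of genotypes in 2i+LIF, 36 were called in both media with opposite signs and were also called for the interaction of genotype and medium. Over all 24457 genes tested this held for 1706 (6.98%). Most of the 243 genes were named because they were called in 2i+LIF, which is part of this criterion. The 1706 genes all lie among the 10664 called in 2i+LIF, so the share over all genes does not measure an excess here. The interaction is the genotype difference in 2i+LIF minus that in LIF, tested in the same limma fit, and Nat1-null and WT arrays lay on different slides in both media.

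In most of these the genotype difference was positive in 2i+LIF and negative in LIF. Epithelial and trophoblast genes had wide interaction values: Rhox6 7.59, Krt18 7.14, Rhox9 6.86, Krt19 5.67 and Ascl2 2.62. Krt18 had differences of 1.88 in 2i+LIF and -5.25 in LIF. ERK and epiblast genes followed, with Fgf5 at 6.29, Egr1 4.81, Pou3f1 3.65, Dusp4 3.52, Dnmt3b 3.21, Dnmt3l 2.92, Fgf8 1.55 and Il17rd 1.05. Wnt, BMP and Notch targets gave 3.17 for Sp5, 2.99 for Axin2, 3.22 for Id3, 4.06 for Hes5 and 6.77 for Lfng. Sensing and antigen presentation genes gave 5.45 for Psmb8, 4.38 for Sting1, 2.82 for Oas1a and 2.00 for Bst2. Stress genes gave 3.07 for Atf3, 1.91 for Btg2 and 1.0 for Sesn2. Adgrl2 reached 7.18 and Col3a1 5.07. Col3a1 is one of the fibroblast markers, whose summed level was 0.487 to 0.657 on the Nat1-null LIF arrays and 132 to 150 on the WT LIF arrays. That sum is on the linear scale and includes Col3a1 and Acta2, so a single gene can dominate it. The part of other cells in these values was not tested. Fgf5, Adgrl2, Lfng and Psmb8 were not well above background on any WT 2i+LIF array, so the size of their values depends on the background.

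In the others the difference was negative in 2i+LIF and positive in LIF. Ldhb had an interaction of -2.95, with differences of -1.32 in 2i+LIF and 1.62 in LIF, and Nanog one of -1.82, with -0.42 and 1.40. Sesn1 gave -1.74, Gdf15 -1.66, Sox1 -1.23, Macroh2a2 -1.04, H4c4 -0.94, Mvk -0.75 and Ndufb8 -0.42. The probes of Nanog and Sox1 disagreed in sign in 2i+LIF.

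Calls in 2i+LIF that were lost without 1 array, within this group, were those of Dusp4, Fgf8, Lfng, Col3a1 and Sesn2. Dusp4 lost its call without WT 2i+LIF replicate 1 (adjusted p = 0.0556) or 3 (0.0508) and without Nat1-null 2i+LIF replicate 2 (0.0657). Lfng lost it without replicate 1 or 2 of either 2i+LIF group (0.0591 to 0.0721). Fgf8 (0.0554 to 0.135) and Col3a1 (0.0553 to 0.142) lost theirs without most single arrays of 2i+LIF and some of WT LIF. Sesn2 lost it without Nat1-null 2i+LIF replicate 3 (0.05). Psmb8 was not called with normexp correction (0.871) or quantile normalisation (0.0797).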

How the results depend on the processing

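Leaving out single arrays kept 8968 to 11889 calls, 2510 to 2840 of at least 2-fold, 10909 to 12948 interaction calls and 7334 to 10119 medium calls in Nat1-null cells, and Eif4g2 stayed at -2.945 to -2.849. Small list counts moved: ERK feedback inhibitors had 1 to 2 lower (1 without any WT 2i+LIF array or Nat1-null 2i+LIF replicate 1 or 2), naive genes 1 to 3 lower (1 without replicate 2 or 3 of either 2i+LIF group), neural genes 1 to 2 higher (2 without Nat1-null LIF replicate 2 or 3), and 2-cell genes 1 to 2 higher (1 without WT 2i+LIF replicate 2). With normexp, 1220 genes changed by at least 2-fold (453 higher, 767 lower), and ERK feedback, ERK-induced and LIF lists each had 1 lower. Without scaling, 9893 genes were higher and 3147 lower, 1445 were higher by at least 2-fold, the interaction gave 10268 and 2810, and the medium 1910 and 6714. ERK feedback, trophoblast, ER chaperone and naive genes then had 0 lower in limma, naive genes 11 higher, paternally expressed imprinted genes 10 higher and neural genes 3 higher. Rpl3 (0.013), Rpl11 (0.045), Rplp0 (0.05), Rps9 (0.07), Ndufb8 (0.007) and Uqcrc2 (0.042) changed sign; with the mean of probes Rplp0 was 0.01. The balance of calls turned without scaling for p53 targets (7 higher, 3 lower), fibroblast genes (6 and 5), maternally expressed imprinted genes (7 and 5) and the Notch and Hedgehog list (10 and 6), and with quantile normalisation for cholesterol synthesis (3 and 4). Quantile normalisation gave ER chaperones 2 lower and LIF genes 1 lower, and a chromosome 8 median of -0.382, against -0.36 in the authors' deposited table. Among the 18993 genes bright on all 12 arrays, 1409 changed by at least 2-fold (784 lower), with 0 neural genes higher, 5 paternally expressed genes lower, and 1 2-cell gene higher and 5 lower. Without a filter (36310 genes), ERK feedback and naive genes each had 1 lower. The mean of probes gave 1 2-cell gene higher and 1 naive gene lower, and the 6 arrays of 2i+LIF alone 0 ERK feedback genes lower. The causes were not tested. Dim genes limit the rest: requiring signal on all 3 arrays of a 2i+LIF group, chosen after seeing the data as was leaving out chromosome 8, gave 10262 calls (4976 higher, 5286 lower). Adding 346 genes that lacked an array value, also chosen after seeing the data, gave 10748 calls in all, with 44 of those genes higher and 72 lower.

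With a replicate block, although the numbers do not pair the samples, 10457 genes were called, 2644 by at least 2-fold, with 11988 interaction and 8787 medium calls, and Eif4g2 was -2.891 (adjusted p = 1.01e-06).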

Other observations

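Among genes with a symbol that were well above background on all 12 arrays, the widest interaction values of genotype and medium belonged to muscle, epithelial and germ cell genes on the positive side. Acta1, the skeletal muscle actin, had an interaction of 7.50 (adjusted p = 1.68e-08), with a genotype difference of 0.26 in 2i+LIF and -7.24 in LIF. Acta2, the smooth muscle actin, had 9.33 (adjusted p = 3.79e-08), with -0.30 in 2i+LIF and -9.62 in LIF. Acta2 is also one of 7 fibroblast markers whose summed level was 0.487 to 0.657 on the Nat1-null LIF arrays and 132 to 150 on the WT LIF arrays. That sum is on the linear scale and holds the signal of Acta2 itself, so it is no separate measure beside Acta2. The part of other cells in these values was not tested. Dppa3, a maternal factor that guards DNA methylation in the zygote, had 6.90, with 0.21 in 2i+LIF and -6.68 in LIF. Rhox6 (7.59) and Krt18 (7.14) complete the 5. In 2i+LIF the genotype differences of Acta1 (adjusted p = 0.163), Acta2 (0.297) and Dppa3 (0.117) did not pass the test.

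On the negative side stood Grin2c, a glutamate receptor subunit (-4.96, adjusted p = 1.68e-08), Tal1, a factor of blood stem cells (-4.88, 4.53e-08), Vax2os (-4.88, 2.29e-08), Gm9918 (-4.79, 1.11e-07) and Ndufa4l2, a hypoxia-induced mitochondrial protein (-5.07, 8.52e-07). Their genotype differences in 2i+LIF were -0.05, -0.35, 0.40, -1.36 and 0.78 in that order, against 4.91, 4.53, 5.28, 3.43 and 5.86 in LIF.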
